A study of Mus musculus with 12 samples.

Results

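Ankrd1, Ccn1, Ccn2, Axl, Amotl2, Lats2 and Ajuba are genes whose transcription is commonly read as the output of the Hippo pathway. They were followed in BMEL cells, bipotential lines grown out of embryonic mouse liver, which can differentiate towards hepatocytes or towards bile duct cells. For each gene the probe sets annotated to its current or older symbol (Cyr61 for Ccn1, Ctgf for Ccn2, Jub for Ajuba) were taken, and the probe set with the highest mean log2 intensity over 12 arrays stood for the gene. All 7 genes were found, among 12393 genes measured in this way. The study hybridised total RNA to 12 one-colour Affymetrix mouse 430A arrays, 2 for each combination of line and culture. The lines, 9A1 and 14B3, were isolated independently of each other and both came from livers of CBA/J x C57Bl/6J embryos at day 14 of gestation, and no group carried an engineered allele or received an added agent that the labels name. Each line was kept in basal culture, as aggregates for 5 days, or in Matrigel, a basement membrane gel. Matrigel cultures were labelled as 10 days, except replicate 1 of 14B3 in Matrigel, labelled as 5 days, so Matrigel and time in culture cannot be told apart in most comparisons with aggregates. Each line is a single isolate, so differences between 9A1 and 14B3 are differences between these isolates only.

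The Hippo pathway is a kinase cascade. The kinases Stk3 and Stk4, with the scaffold Sav1, activate the kinases Lats1 and Lats2 with their Mob1 cofactors, and these phosphorylate the coactivators Yap1 and Taz (gene Wwtr1), which are then held in the cytoplasm or degraded. Unphosphorylated Yap1 and Taz enter the nucleus and bind the Tead transcription factors at target genes. The cascade responds to cell density, cell shape and attachment, and in mouse liver it restrains organ size. Yap1 activity is known to be higher in bile duct and progenitor cells than in mature hepatocytes. Array intensities measure RNA and carry no information on phosphorylation or location of these proteins.

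Promoter windows are shown because Tead factors are the DNA-binding partners through which these genes are known to be switched on. RefSeq windows of the GRCm38.p6 build, from 250 bases before to 50 bases after a transcription start, were matched for 6 of the 7 genes, with 2 windows for Lats2. Ccn2 is named only. Capitals mark the 6-base Tead motif GGAATG on either strand (CATTCC on the strand printed when the motif lies on the other strand), and all sequences run 5′ to 3′ on the gene's own strand.
Ankrd1 (chr19:36119795-36120094, minus strand): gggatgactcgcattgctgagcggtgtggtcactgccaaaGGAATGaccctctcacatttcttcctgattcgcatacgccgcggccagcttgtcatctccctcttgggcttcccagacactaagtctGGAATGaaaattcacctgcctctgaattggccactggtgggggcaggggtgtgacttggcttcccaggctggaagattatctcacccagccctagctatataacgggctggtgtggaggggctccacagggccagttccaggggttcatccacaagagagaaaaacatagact
Ccn1 (chr3:145649936-145650235, minus strand): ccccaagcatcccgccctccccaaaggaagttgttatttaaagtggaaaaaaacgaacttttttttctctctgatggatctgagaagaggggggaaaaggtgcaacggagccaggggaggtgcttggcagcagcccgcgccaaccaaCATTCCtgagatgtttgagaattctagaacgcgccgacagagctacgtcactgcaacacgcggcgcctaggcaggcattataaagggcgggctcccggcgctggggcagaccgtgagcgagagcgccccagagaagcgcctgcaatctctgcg
Axl (chr7:25788684-25788983, minus strand): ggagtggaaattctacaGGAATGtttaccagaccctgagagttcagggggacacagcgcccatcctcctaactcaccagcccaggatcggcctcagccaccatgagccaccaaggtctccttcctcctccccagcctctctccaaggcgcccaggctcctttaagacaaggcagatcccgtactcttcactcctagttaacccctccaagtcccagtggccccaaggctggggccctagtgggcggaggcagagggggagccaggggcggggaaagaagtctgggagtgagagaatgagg
Amotl2 (chr9:102717554-102717853, plus strand): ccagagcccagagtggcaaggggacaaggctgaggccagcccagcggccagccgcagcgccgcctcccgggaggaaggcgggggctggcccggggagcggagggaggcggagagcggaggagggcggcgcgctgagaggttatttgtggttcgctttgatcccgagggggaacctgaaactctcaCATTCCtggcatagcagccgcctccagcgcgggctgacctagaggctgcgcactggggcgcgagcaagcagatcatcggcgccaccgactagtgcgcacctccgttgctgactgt
Lats2, first window (chr14:57746074-57746373, minus strand): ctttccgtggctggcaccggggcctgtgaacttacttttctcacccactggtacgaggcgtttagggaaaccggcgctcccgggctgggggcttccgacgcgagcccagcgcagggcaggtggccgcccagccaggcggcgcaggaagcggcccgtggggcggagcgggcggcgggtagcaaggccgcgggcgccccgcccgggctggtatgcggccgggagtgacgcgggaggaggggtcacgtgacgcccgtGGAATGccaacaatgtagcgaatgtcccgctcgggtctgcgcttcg
Ajuba (chr14:54577612-54577911, minus strand): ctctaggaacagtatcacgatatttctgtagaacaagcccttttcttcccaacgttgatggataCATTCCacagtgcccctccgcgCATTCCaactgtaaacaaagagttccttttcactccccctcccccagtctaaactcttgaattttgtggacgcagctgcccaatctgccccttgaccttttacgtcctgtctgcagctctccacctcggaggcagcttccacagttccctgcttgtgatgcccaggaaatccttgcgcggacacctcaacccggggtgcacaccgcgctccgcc

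The motif was present in the windows of all 6 genes, at 2 places for Ankrd1 and for Ajuba and at 1 for Ccn1, Axl, Amotl2 and the first window of Lats2. The second Lats2 window (chr14:57734369-57734668, minus strand) held none. Over all 32851 windows of the table, 14.7% held the motif at least once and 1.36% at 2 or more places. Counted from the start site, the matches in Ankrd1 began at positions -210 and -123, the match in Axl at -233, and those in Ajuba at -186 and -164. In Ccn1 and Amotl2 it began nearer, at -103 and -65. In Lats2 the match lay after the start, from position 5 to 10. The motifs of other factors often named beside Tead, TGANTCA for AP-1 and the CArG box for serum response factor, were not in any of the 7 windows. They were in 7.81% and 1.63% of all windows respectively. Letters in a window are a description of the sequence, and no binding was measured.

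Values below are log2 of the deposited intensity, on which 1 unit is a 2-fold change. Array medians of the intensity ran from 268 to 281, and precision is limited by how many arrays there are. The culture comparisons average the lines and set 4 arrays against 4, and each line comparison averages the cultures. A gene is called changed when its adjusted p from limma, over all 12393 genes, is below 0.05. The 95% intervals are per gene and are not adjusted. As a loose guide to background, 22 genes of other tissues with no call in any comparison lay between 4.49 and 9.29. The median gene of an array lay between 8.38 and 8.46, so a level in that range may be background or real signal. Any fold below, for the 7 genes and for others, whose lower level lies in that range may be too small. Krt19, a keratin of bile duct and liver progenitor cells, lay between 13.08 and 13.79 in all 12 arrays. Other bile duct markers did change, and in aggregates Epcam rose and Krt7 fell. The stellate cell gene Lrat (4.91 to 5.11) and the mesenchymal receptor gene Pdgfrb (6.31 to 7.18) stayed in the background range. Vim, from the same marker list as Lrat and Pdgfrb, was bright (12.29 to 13.82). Krt19, Lrat and Pdgfrb were picked after their values were seen. The arrays of a group are described as biological duplicates without further detail. The p-values therefore rest on the spread between these arrays alone, which may be partly technical. In bulk RNA, fewer cells of a type and less RNA per cell cannot be told apart.

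In aggregates all 7 genes were lower than in basal culture. All 7 passed the test, against 46.3% of all genes called, 23.4% lower and 22.9% higher. The median log2 change of the 7 was -1.91, beside 0.10 for all genes. The folds of the probe sets used ran from 1.31 (Lats2) to 8.15 (Ankrd1), but the order is not settled. Aggregate levels of Ankrd1, Ccn1, Ccn2 and Ajuba and all levels of Lats2 reach into the background range. The 4 aggregate arrays lay entirely below the 4 basal arrays for 6 of the 7 genes, Ccn2 being the exception, and 21.8% of all genes showed such a separation in that direction.

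Relative to basal culture, 6 of the 7 log2 differences in Matrigel were below 0 and 3 passed the test. Axl, Amotl2 and Lats2 were lower, 3 of 7, against 28.4% of all genes called, 14.3% lower and 14.1% higher. Ankrd1, Ccn1, Ccn2 and Ajuba did not pass, although Ajuba did in a fit blocked by replicate number, and no difference between members was tested. The median log2 difference was -0.51, beside -0.04 for all genes. Relative to aggregates, 6 of the 7 were higher in Matrigel, all but Lats2, against 26.7% of all genes called, 13.9% higher and 12.7% lower. That median was 1.36, beside -0.10 for all genes. The Matrigel arrays lay entirely above the aggregate arrays for Ankrd1, Ccn1, Ccn2 and Amotl2, 4 of the 7, and 11.8% of all genes did so. The 3 comparisons share arrays, so they are not independent of each other.

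**Figure D1:**
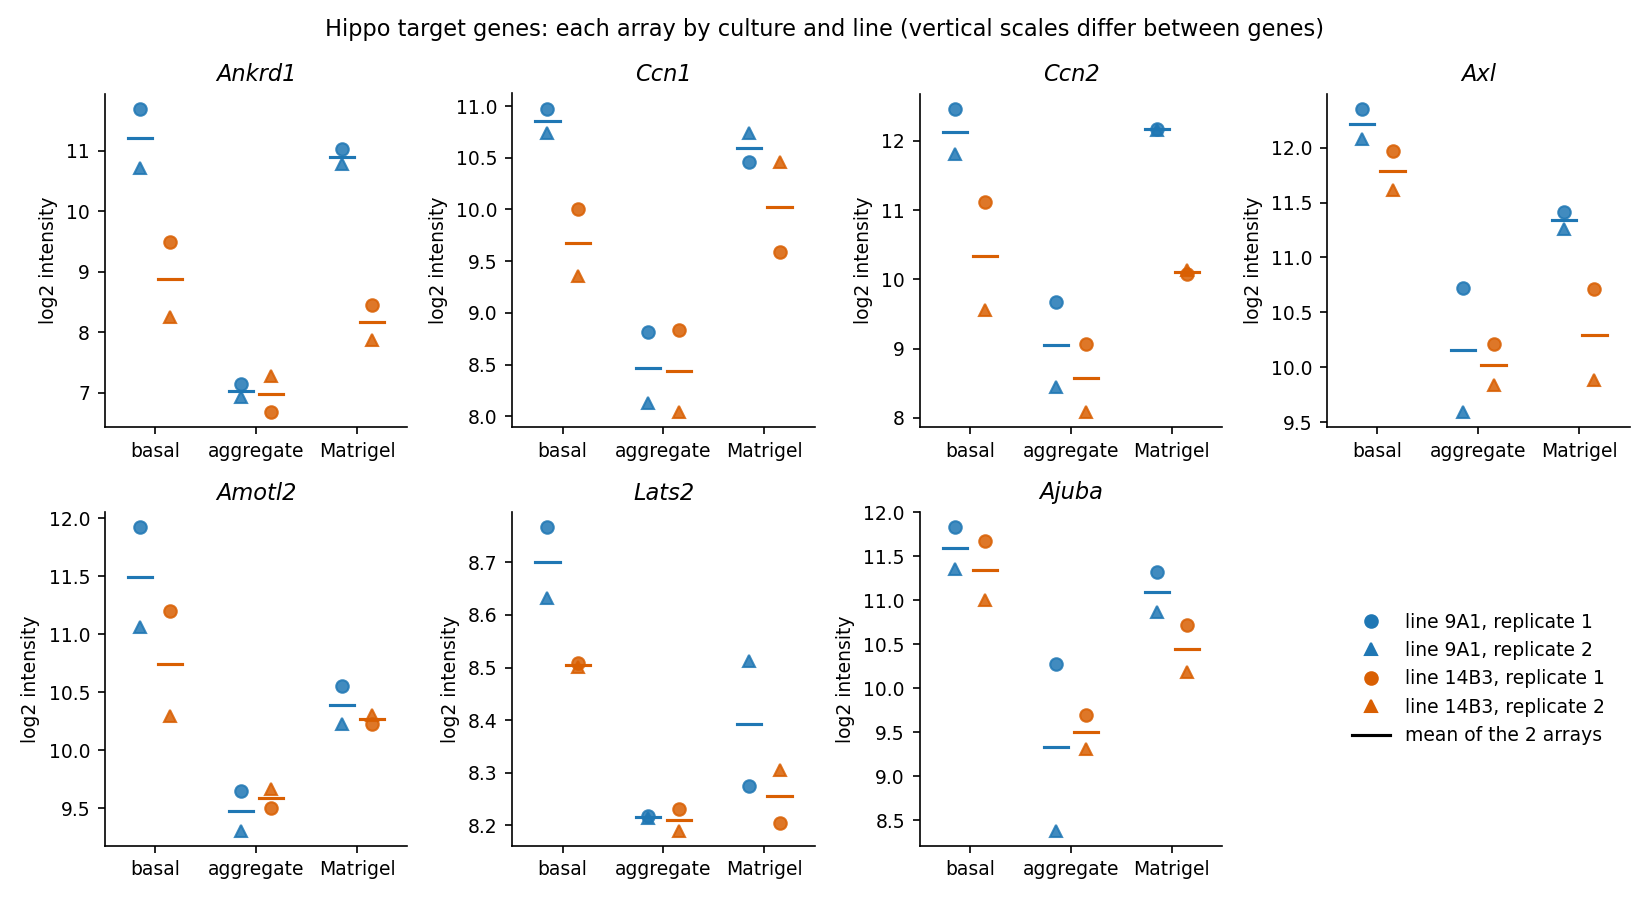
Log2 intensity (y axis) of each of the 7 genes on each of the 12 arrays, with basal, aggregate and Matrigel culture along the x axis and the lines 9A1 and 14B3 marked apart. Points are single arrays, short lines the mean of the 2 arrays of a group, and vertical scales differ between genes. The aggregate arrays of Ankrd1 sit between 6.68 and 7.28, below all its other arrays, while those of Lats2 span only 8.19 to 8.23.

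Ankrd1 (Entrez Gene 107765, chr19:36111965-36119844, GRCm38.p6) encodes an ankyrin repeat protein found in the nucleus and in muscle sarcomeres, and is a widely used reporter of Yap1 and Taz activity. In basal culture its log2 intensity was 11.69 and 10.71 in the 9A1 arrays and 9.50 and 8.25 in the 14B3 arrays. In aggregates it was 7.15 and 6.92 in 9A1, and 6.68 and 7.28 in 14B3. In Matrigel it was 11.02 and 10.77 in 9A1, and 8.45 and 7.88 in 14B3. All 4 aggregate arrays were the lowest and close together, and the lines separated in basal and in Matrigel culture with 9A1 higher and no overlap. The change from basal to aggregate culture was -3.03 ± 0.28 log2 units (SE, adjusted p = 2.56e-06). From aggregates to Matrigel it was 2.52 ± 0.28 (5.73-fold higher, adjusted p = 6.249e-05). Matrigel and basal culture differed by -0.51 with a 95% interval from -1.12 to 0.10 (adjusted p = 0.2287). Without replicate 2 of basal 14B3, the dimmest basal array, that difference was -0.82 and passed (adjusted p = 0.03389). The aggregate levels lie in the background range, so the folds against aggregates may be too small. In 14B3 both Matrigel arrays and replicate 2 of basal culture lie there too.

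Ccn1 and Ccn2 encode secreted matricellular proteins that bind integrins and act on adhesion and matrix formation. Ccn1 (Entrez Gene 16007, chr3:145646971-145649985) stood at 10.98 and 10.74 in basal 9A1 and at 10.00 and 9.35 in basal 14B3. In aggregates it stood at 8.81 and 8.13 in 9A1 and at 8.84 and 8.04 in 14B3. In Matrigel it stood at 10.46 and 10.74 in 9A1 and at 9.59 and 10.46 in 14B3. Every aggregate array was below every array of the other cultures, and the basal and Matrigel arrays overlapped. Ccn1 fell by 1.81 ± 0.24 log2 units (SE, adjusted p = 5.585e-05) in aggregates and was 3.62-fold higher in Matrigel than in aggregates (1.86 ± 0.24, adjusted p = 0.0001947). Matrigel and basal culture differed by 0.04, with a 95% interval from -0.49 to 0.57 (adjusted p = 0.9429).

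Ccn2 (Entrez Gene 14219, chr10:24595442-24598683), also known as connective tissue growth factor, was also bright in basal culture. Its basal values were 12.47 and 11.80 in 9A1 and 11.11 and 9.56 in 14B3. The aggregate values were 9.67 and 8.44 in 9A1 and 9.06 and 8.08 in 14B3. The Matrigel values were 12.18 and 12.16 in 9A1 and 10.08 and 10.14 in 14B3. Basal and aggregate arrays overlapped only through replicate 2 of basal 14B3, which lay just below replicate 1 of aggregate 9A1, and Matrigel arrays lay above all aggregate arrays. Ccn2 fell by 2.42 ± 0.35 log2 units in aggregates (5.35-fold, adjusted p = 0.0001022) and was 5.02-fold higher in Matrigel than in aggregates (adjusted p = 0.0004844). Matrigel and basal culture differed by -0.09, with a 95% interval from -0.86 to 0.67, which leaves room for differences in either direction.

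Axl (Entrez Gene 26362, chr7:25756500-25788924) encodes a receptor tyrosine kinase that, with Tyro3 and Mertk, binds the ligands Gas6 and protein S. Basal culture had the highest values, 12.36 and 12.08 in 9A1 and 11.97 and 11.61 in 14B3. Aggregates had 10.72 and 9.59 in 9A1 and 10.21 and 9.84 in 14B3. Matrigel had 11.42 and 11.26 in 9A1 and 10.71 and 9.88 in 14B3. Axl was the only one of the 7 whose Matrigel arrays all lay below its basal arrays (13.6% of all genes did so), and its Matrigel and aggregate arrays overlapped. It fell by 1.91 ± 0.24 log2 units in aggregates (3.76-fold, adjusted p = 3.317e-05) and by 1.19 ± 0.24 in Matrigel (2.28-fold, adjusted p = 0.00278). Matrigel exceeded aggregates by 0.73 ± 0.24 (1.65-fold, adjusted p = 0.04326). That call is marginal and was lost when any of 9 of the 12 arrays was left out, namely all 4 basal arrays, replicate 2 of either aggregate group, both Matrigel 9A1 arrays and replicate 1 of Matrigel 14B3. The adjusted p without them ran from 0.05268 to 0.1662, and the smallest difference among these was 0.44 without replicate 2 of aggregate 9A1. The call was also lost with median centring (adjusted p = 0.05139), with log2(value + 16) (adjusted p = 0.05147), with every probe set tested (adjusted p = 0.05133), with array weights (adjusted p = 0.08342), with only the groups compared (adjusted p = 0.06696) and with the mean of both probe sets (0.30, adjusted p = 0.1189). In all it was lost in 16 of 25 alternatives.

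Amotl2 and Lats2 act against Yap1 and are themselves switched on by it, a negative feedback. Amotl2 (Entrez Gene 56332, chr9:102717091-102733418), an angiomotin family scaffold at cell junctions that binds Yap1, read 11.92 and 11.06 in basal 9A1 and 11.20 and 10.29 in basal 14B3. It read 9.64 and 9.31 in aggregate 9A1 and 9.50 and 9.66 in aggregate 14B3. In Matrigel it read 10.55 and 10.23 in 9A1 and 10.23 and 10.30 in 14B3. The order was basal, Matrigel, aggregate, with aggregates separate from both and Matrigel overlapping basal through replicate 2 of basal 14B3. Amotl2 fell by 1.59 ± 0.21 log2 units in aggregates (3.01-fold, adjusted p = 5.979e-05) and by 0.79 ± 0.21 in Matrigel (1.73-fold, adjusted p = 0.01546). Matrigel exceeded aggregates by 0.80 ± 0.21 (adjusted p = 0.01677). The fall in Matrigel missed the threshold without replicate 1 of basal 9A1 (-0.58, adjusted p = 0.06862), without replicate 1 of basal 14B3 (-0.57, adjusted p = 0.06789) and without replicate 2 of Matrigel 9A1 (-0.71, adjusted p = 0.05961). The excess over aggregates missed it without replicate 2 of aggregate 9A1 (adjusted p = 0.06183) and without replicate 1 of Matrigel 9A1 (adjusted p = 0.06827).

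Lats2 (Entrez Gene 50523, chr14:57689662-57746212), the kinase that phosphorylates Yap1 and Taz, varied least. It was at 8.77 and 8.63 in basal 9A1 and 8.51 and 8.50 in basal 14B3. All 4 aggregate arrays were between 8.19 and 8.23. In Matrigel it was at 8.27 and 8.51 in 9A1 and 8.20 and 8.31 in 14B3. The aggregate arrays lay below all basal arrays by a small margin, and all values lie in the background range. Lats2 fell by 0.39 ± 0.09 log2 units in aggregates (adjusted p = 0.003912) and by 0.28 ± 0.09 in Matrigel (1.21-fold, adjusted p = 0.04052). The fall in Matrigel was no longer called when any of 9 arrays was left out (all but both aggregate 14B3 arrays and replicate 2 of Matrigel 9A1), with adjusted p from 0.05701 to 0.1605. Matrigel and aggregates differed by 0.11, with a 95% interval from -0.09 to 0.31 (adjusted p = 0.3685).

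Ajuba (Entrez Gene 16475, chr14:54567469-54577661) encodes a LIM domain scaffold of cell junctions that binds and restrains Lats kinases. Its basal values were 11.83 and 11.35 in 9A1 and 11.68 and 11.01 in 14B3. In aggregates 9A1 gave 10.27 and 8.38, the widest gap between duplicates of any of the 7 genes, and 14B3 gave 9.70 and 9.30. In Matrigel 9A1 gave 11.32 and 10.87 and 14B3 gave 10.71 and 10.19. Aggregates were below all basal arrays and overlapped Matrigel at 1 array. Replicate 2 of aggregate 9A1 (8.38) lay in the background range, so the folds against aggregates may be too small. Ajuba fell by 2.05 ± 0.34 log2 units in aggregates (4.15-fold, adjusted p = 0.0002797) and was 2.56-fold higher in Matrigel than in aggregates (1.36 ± 0.34, adjusted p = 0.01067). Matrigel and basal culture differed by -0.69, with a 95% interval from -1.43 to 0.04 (adjusted p = 0.1614). The same difference passed in a fit blocked by replicate number within line (adjusted p = 0.02148), and it also passed without either aggregate 9A1 array (adjusted p = 0.02).

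**Figure D2:**
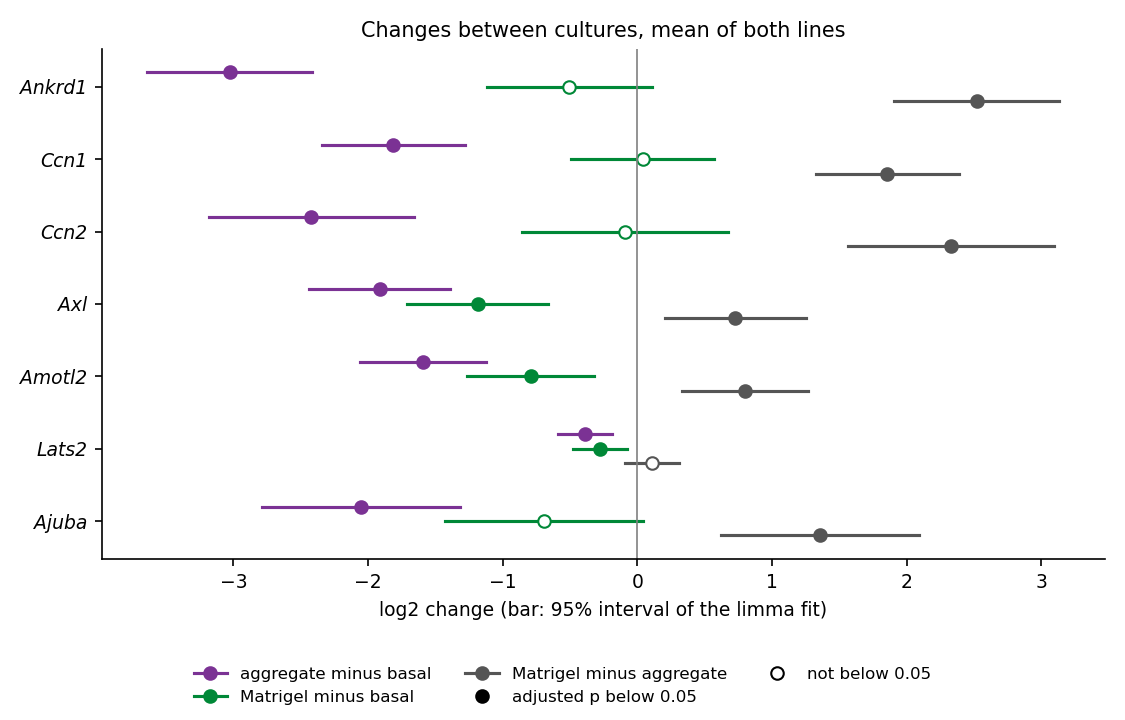
Log2 change of the 7 genes (x axis) in aggregates against basal culture, Matrigel against basal culture and Matrigel against aggregates, each as a point with its 95% interval from limma (4 arrays against 4); filled points have an adjusted p below 0.05. In the first comparison all intervals lie below 0, and in the second those of Ankrd1, Ccn1, Ccn2 and Ajuba include 0.

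Where several probe sets measured a gene they were compared within these arrays. The second Ankrd1 probe set changed by -3.03 in aggregates and followed the first (r = 0.98 over 12 arrays, as a description of arrays that share cultures). The second Ccn1 probe set changed by -2.35 (r = 0.98), more than the -1.81 of the one used, whose identifier marks probes that may also match other transcripts. The second Axl probe set stayed between 4.92 and 5.19 in all arrays and did not pass (0.04, adjusted p = 0.7232), a level deep in the background range. Of 6 Lats2 probe sets, 3 were lower in aggregates, by -0.39, -0.94 and -0.76, and the other 3 did not pass, with changes of 0.15, -0.12 and -0.20. The size of the Lats2 change therefore depends on the probe set. Ccn2, Amotl2 and Ajuba had a single probe set each.

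The lines were then compared. Ankrd1 and Ccn2 were lower in 14B3 than in 9A1, 2 of the 7 genes, against 6.01% of all genes called and 3.45% called lower. Averaged over cultures Ankrd1 was 3.26-fold lower in 14B3 (-1.70 ± 0.23, SE, adjusted p = 0.0008059) and Ccn2 2.73-fold lower (-1.45 ± 0.28, adjusted p = 0.01004). Ccn1 (-0.59, adjusted p = 0.1206), Axl (-0.53, adjusted p = 0.1662), Amotl2 (-0.25), Lats2 (-0.11) and Ajuba (-0.24) did not pass. Axl passed with a replicate block shared by both lines (adjusted p = 0.01622) and without replicate 2 of aggregate 9A1 (-0.72, adjusted p = 0.02043).

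The line difference was read within each culture, on 2 arrays against 2. In basal culture only Ankrd1 of the 7 passed (5.01-fold lower in 14B3, adjusted p = 0.01149), against 1.9% of all genes called and 0.92% called lower. That call was lost without replicate 1 of basal 9A1 (-1.84, adjusted p = 0.1451) and without replicate 2 of basal 14B3 (-1.70, adjusted p = 0.1114). Ccn2 (-1.80, adjusted p = 0.1174) passed with the block shared by both lines (adjusted p = 0.01318) and without replicate 1 of basal 14B3 (-2.58, adjusted p = 0.03316). In Matrigel Ankrd1 (6.65-fold lower, adjusted p = 0.002214) and Ccn2 (4.17-fold lower, adjusted p = 0.0418) passed, against 3.77% called and 2.41% called lower. Ankrd1 of 14B3 lay in the background range in Matrigel (8.45 and 7.88) and in replicate 2 of basal culture (8.25), so its folds here may be too small. The Ccn2 call was lost without any of the 4 Matrigel arrays, with adjusted p from 0.1524 to 0.2061. Axl (-1.04, adjusted p = 0.1553) passed there with the block within each line and without either aggregate 9A1 array (adjusted p = 0.04475 in each). In aggregates 0 of the 7 passed in limma, and 0 had an unadjusted p below 0.05, against 1.53% of all genes called. There Ankrd1 differed by -0.05 with a 95% interval from -0.92 to 0.81, at levels in the background range for both lines.

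Within 9A1 all 7 genes fell in aggregates (36.9% of all genes called, 19.5% lower), with Ankrd1 17.9-fold lower. The Lats2 call there was lost without replicate 1 of basal 9A1 (adjusted p = 0.1047) or either aggregate 9A1 array (adjusted p = 0.051 and 0.05615). Within 14B3 6 of 7 fell (33.2% of all genes called, 17.5% lower), and Lats2 did not pass (-0.29, adjusted p = 0.1103). Leaving out 1 array took the 14B3 count as low as 2. Without replicate 1 of basal 14B3 the calls of Ccn1 (-0.92), Ccn2 (-0.98), Amotl2 (-0.71) and Ajuba (-1.51) were lost, and without replicate 2 of aggregate 14B3 those of Ccn1 (-0.84), Ccn2 (-1.27) and Ajuba (-1.65). Without replicate 1 of aggregate 14B3 that of Amotl2 was lost (-1.08).

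Between Matrigel and basal culture 1 gene passed in each line, Amotl2 in 9A1 (-1.10, 17.8% of all genes called, 8.07% lower) and Axl in 14B3 (-1.50, 16.5% of all genes called, 7.6% lower). Amotl2 lost its call without replicate 1 of basal 9A1 (-0.67) or either Matrigel 9A1 array (-1.27 and -0.94), and Axl without replicate 1 of basal 14B3 (-1.32) or replicate 2 of Matrigel 14B3 (-1.08). With the replicate block 2 passed in each line, Axl (-0.88, adjusted p = 0.01453) joining in 9A1 and Ajuba (-0.89, adjusted p = 0.04813) in 14B3. Axl in 9A1 (adjusted p = 0.03462) and Ajuba in 14B3 (adjusted p = 0.04934) also passed without either aggregate 9A1 array, and Ankrd1 in 14B3 without replicate 2 of basal 14B3 (-1.33, adjusted p = 0.04859).

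From aggregates to Matrigel 5 of 7 rose in 9A1 (15.6% of all genes called, 9.37% higher) and 1 of 7, Ccn1, in 14B3 (1.59, adjusted p = 0.01058, 13% of all genes called, 7.15% higher). With the replicate block the counts were 6 in 9A1, with Amotl2 (adjusted p = 0.01981), and 4 in 14B3, with Ankrd1 (adjusted p = 0.03576), Ccn2 (adjusted p = 0.01028) and Ajuba (adjusted p = 0.0408). The block also raised the calls over all genes, from 3307 to 4688 with the lines averaged. The shares above are without the block, so no gain particular to the 7 genes is read from these counts. Leaving out 1 array gave 3 to 6 in 9A1 and 0 to 3 in 14B3. In 9A1 the calls of Axl and Ajuba were lost without replicate 2 of aggregate 9A1 (0.61 and 0.82) or either Matrigel 9A1 array, and Amotl2 gained a call without any of the 4 basal arrays. In 14B3 the Ccn1 call was lost without replicate 2 of aggregate 14B3 (1.19) or replicate 2 of Matrigel 14B3 (1.15). There Ccn2 gained a call without either basal 14B3 array, either aggregate 9A1 array or replicate 1 of aggregate 14B3 (2.03), Ankrd1 without either basal 14B3 array and Ajuba without either aggregate 9A1 array.

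The difference between the lines in these responses was tested as an interaction. For the aggregate response 0 of 7 passed in limma, 2 having an unadjusted p below 0.05, against 0.468% of all genes called. For Matrigel against basal 0 of 7 passed, 0 at an unadjusted p below 0.05, against 0.686%. For Matrigel against aggregates 0 of 7 passed, 2 at an unadjusted p below 0.05, against 0.42%. The Ankrd1 aggregate response differed by 2.27 ± 0.56 log2 units (95% interval 1.05 to 3.50, adjusted p = 0.1513), and without replicate 1 of basal 14B3 by 2.89 (adjusted p = 0.03938). For Matrigel against aggregates the Ankrd1 interaction was -2.68 ± 0.56 (adjusted p = 0.08402), which passed under the replicate block (adjusted p = 0.0351) and also when either basal 14B3 array was left out (adjusted p = 0.03989). Ankrd1 lay in the background range in aggregates of both lines, with means of 7.04 and 6.98. The line gap was -0.05 in aggregates, -2.33 in basal and -2.73 in Matrigel culture, and each of these interactions sets the aggregate gap against another. A line gap in aggregates may be hidden at such levels, which was not tested, so no difference in response is read from these values.

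**Figure D3:**
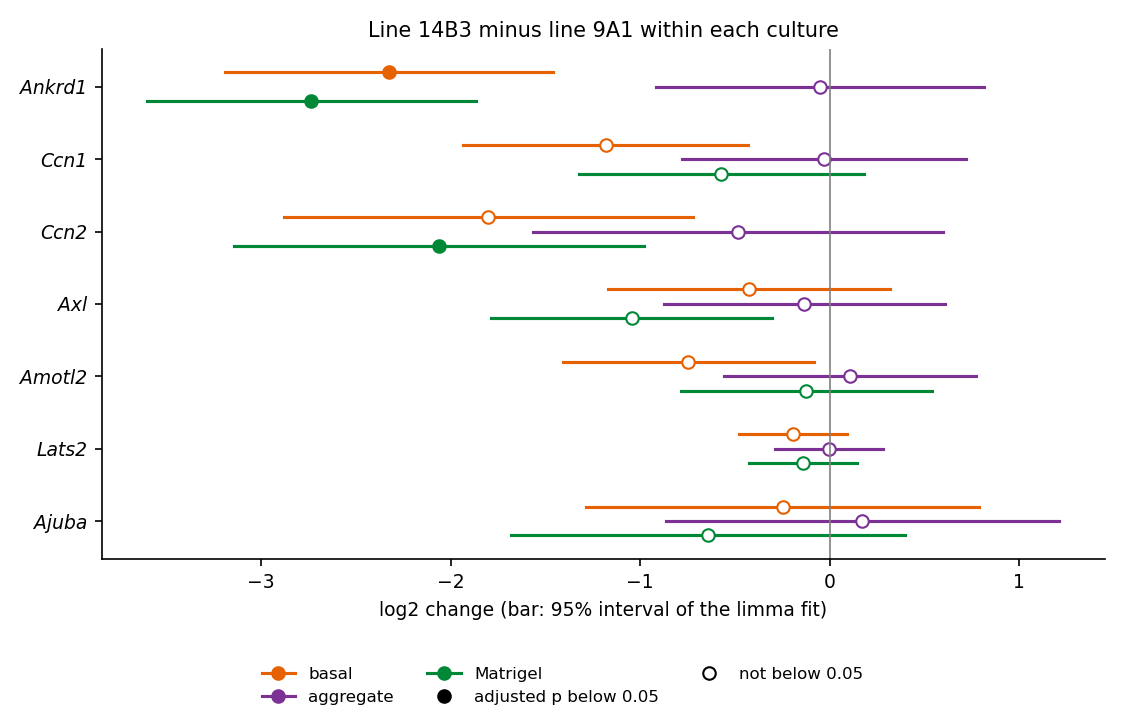
Log2 difference 14B3 minus 9A1 (x axis) of the 7 genes in each culture, as points with 95% intervals from limma (2 arrays against 2); filled points have an adjusted p below 0.05. Ankrd1 stands at -2.33 in basal and -2.73 in Matrigel culture and at -0.05 in aggregates.

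The 7 genes varied together across the arrays. All 21 pairs correlated positively over the 12 arrays, with r from 0.71 to 0.95 and a median of 0.83. This is a description, since arrays of a group share their culture and line, and within groups r ran from -0.14 to 0.94. Culture accounted for 59.1% (Ankrd1) to 77.2% (Amotl2) of the sum of squares of a gene, beside a median of 48.5% over all genes. Line accounted for 24.5% in Ankrd1 and 24.8% in Ccn2, and for 1.47% to 8.98% in the other 5 genes. Axl and Ajuba were lower in replicate 2 than in replicate 1 in all 6 groups, and Ankrd1 and Ccn2 in 5 of 6.

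The genes most like the mean of the 7 over the 12 arrays were Selenon (r = 0.98), Cers5 (r = 0.97) and Dbn1 (r = 0.97), the last encoding the actin-binding protein drebrin. Of single genes, Ajuba was most like Actn1 (r = 0.98), an actin crosslinker of focal adhesions, and Trip6 (r = 0.98), another LIM domain protein. Ankrd1 was most like the collagen gene Col5a2 (r = 0.98), and Ccn2 was most like Arhgap6 (r = 0.96) and Ankrd1 (r = 0.95). The closest gene was Gzme for Ccn1 (r = 0.95), Trit1 for Axl (r = 0.97), Eloc for Amotl2 (r = 0.98) and Cryab for Lats2 (r = 0.94). Arrays of a group share their culture and line, so these r values are a description only.

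RNA of the pathway's own components was followed next. Of the coactivators and Tead factors with their cofactors, 8 of 10 listed genes were measured and 3 fell in aggregates, Yap1, Wwtr1 and Tead2, with none higher (23.4% of all genes lower and 22.9% higher). With the replicate block 5 passed, the same 3 lower and Tead3 and Vgll1 higher, while calls over all genes rose from 5735 to 6519. Wwtr1 (the gene of Taz) was between 10.63 and 10.76 in basal culture and at 9.07, 7.31, 9.01 and 8.83 in aggregates, replicate 2 of 9A1 being the lowest by far. It fell by 2.15 ± 0.30 (4.43-fold, adjusted p = 7.172e-05), and without that array Wwtr1 fell by 1.71. Tead2, a Tead factor of embryonic and progenitor cells, fell by 2.27 ± 0.18 (4.83-fold, adjusted p = 7.107e-07), to values between 6.89 and 7.72. The aggregate levels of both lie in the background range, so their folds may be too small. Yap1 fell by less, 0.39 ± 0.11 (1.31-fold, adjusted p = 0.01206), and its call was lost without replicate 1 of basal 9A1 (adjusted p = 0.06049), replicate 1 of basal 14B3 (adjusted p = 0.05931) or replicate 2 of aggregate 9A1 (adjusted p = 0.05869). Tead3 (0.31, adjusted p = 0.05387) and the Tead cofactor Vgll1 (0.29, adjusted p = 0.095) did not pass, and did under the replicate block (adjusted p = 0.03393 and 0.02653). Tead3 also passed without replicate 2 of either basal group or without either Matrigel 9A1 array (adjusted p from 0.03534 to 0.0453), and Vgll1 without replicate 1 of aggregate 14B3 (0.41, adjusted p = 0.0272). Tead1 (-0.07), Tead4 (-0.05) and the cofactor Vgll4 (0.12) did not pass. With the mean of all its probe sets Tead4 did (-0.28, adjusted p = 0.02853).

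In Matrigel Tead2 was lower than in basal culture (-0.92, adjusted p = 0.002256), as 1 of the 8 (28.4% of all genes called). With the replicate block 3 of 8 passed, against 4175 of 12393 genes. Wwtr1 differed by -0.85 and missed the threshold (adjusted p = 0.05028), although it passed under the replicate block (adjusted p = 0.01632), without either aggregate 9A1 array (adjusted p = 0.001396) and without replicate 1 of Matrigel 14B3 (-1.01, adjusted p = 0.043). Wwtr1 also passed with the mean of all its probe sets (-0.74, adjusted p = 0.003843). It did so too with only the groups compared (adjusted p = 0.002435) and with only genes above the median level (adjusted p = 0.03837). Yap1 differed by -0.26 (adjusted p = 0.1024), and passed with the block (adjusted p = 0.03016). It also passed with quantile normalization (adjusted p = 0.0483) and with the mean of all its probe sets (-0.30, adjusted p = 0.04808). Against aggregates, Wwtr1 (1.29, adjusted p = 0.00697) and Tead2 (1.35, adjusted p = 0.0002219) were higher in Matrigel and Yap1 was not called (0.12, adjusted p = 0.4011). Wwtr1 and Tead2 made 2 of the 8, against 26.7% of all genes called. Tead2 was also lower in 14B3 than in 9A1 (-0.83, adjusted p = 0.005341), the only one of the 8 with a line call (6.01% of all genes called). All its 14B3 values (7.20 to 9.05) lay in the background range, as did replicate 2 of Matrigel 9A1 (9.07), so its differences may be too small.

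Of 21 listed core kinases, adaptors and upstream regulators 16 were measured. In aggregates 9 fell and 1 rose, 10 of 16 against 46.3% of all genes, with a median of -0.35 beside 0.10 for all genes. The upstream phosphatase gene Ptpn14 (-0.81, adjusted p = 9.744e-05), the scaffold gene Sav1 (-0.67, adjusted p = 0.000141), the membrane-linked Frmd6 (-0.87, adjusted p = 0.0002912) and the kinase gene Lats1 (-0.57, adjusted p = 0.0033) fell. The kinase gene Taok3 rose (0.76, adjusted p = 0.0002905). The upstream regulators Nf2 (0.00, adjusted p = 0.9796) and Wwc1 (0.01) did not pass. In Matrigel 5 were lower and 1 higher than in basal culture (28.4% of all genes called). Between Matrigel and aggregates 1 passed, the kinase gene Map4k4 (0.47, adjusted p = 0.01014), against 26.7% of all genes called. With the replicate block 5 passed, while calls over all genes rose from 3307 to 4688. Between the lines 0 of the 16 passed in limma (6.01% of all genes called), 2 at an unadjusted p below 0.05.

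**Figure D4:**
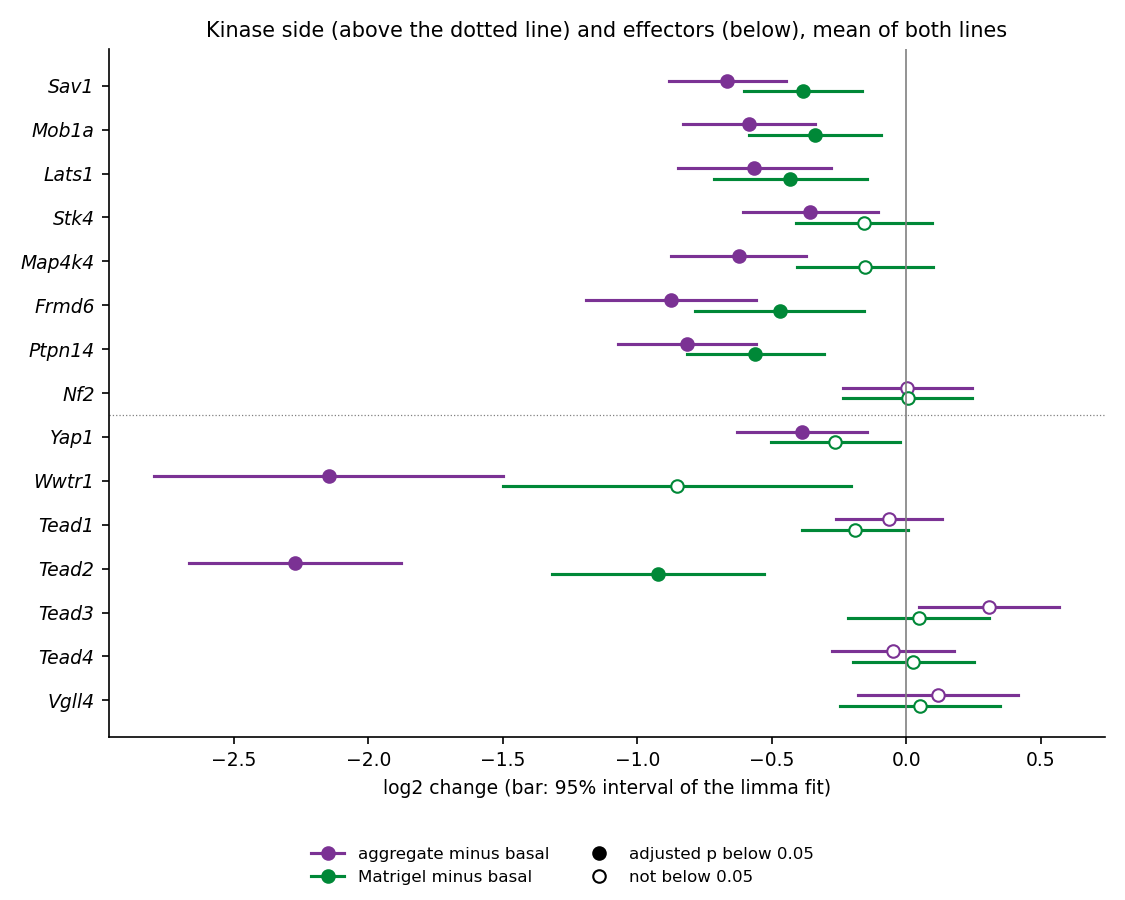
Log2 change in aggregates and in Matrigel relative to basal culture for a chosen part of the measured Hippo pathway genes. Points carry 95% intervals from limma (4 arrays against 4), with regulators above the dotted line and effectors below it. Filled points have an adjusted p below 0.05. Taok3, the regulator called higher in aggregates, is among the measured genes not shown, as are Wwc1 and Vgll1. Wwtr1 and Tead2 stand furthest below 0 in aggregates, at -2.15 and -2.27, and Yap1 at -0.39.

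Genes of the same families were measured to see whether their relatives moved alike. Of 14 measured relatives and partners of the 7 genes, 4 rose and 4 fell in aggregates (46.3% of all genes called), with a median change of -0.07. Among the partners of Axl, the sister receptor gene Mertk rose (2.22, adjusted p = 2.608e-08) and so did Pros1, the gene of protein S (1.59, adjusted p = 2.504e-06), while Tyro3 (-0.10) and the ligand gene Gas6 (0.32, adjusted p = 0.1713) did not pass. Gas6 passed without replicate 2 of aggregate 9A1 (0.48, adjusted p = 0.04408). Mertk was lower in Matrigel than in aggregates (-1.40, adjusted p = 1.098e-05). Of the angiomotins, Amot rose (1.28, adjusted p = 0.0005445) where Amotl2 fell. Of the LIM proteins related to Ajuba, Limd1 rose (0.61, adjusted p = 0.006909), Trip6 fell (-1.20, adjusted p = 6.912e-05) and Zyx did not pass (-0.16). Lpp, another of them, also fell. Its change was -0.25 with arrays of replicate number 1 only. Of the other Ccn genes Ccn4 fell (-1.05), and Ccn3 (-0.04) and Ccn5 (0.07) did not pass. Of 12 measured integrin and other receptor genes for Ccn proteins, 2 rose and 2 fell in aggregates (46.3% of all genes called). With the replicate block 7 passed, while calls over all genes rose from 5735 to 6519. Itga6 (-0.71) and Itga5 (-0.45) fell, and the endocytic receptor gene Lrp1 rose (1.25).

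Other genes described as Yap1 and Taz targets were counted as well, beside 46.3%, 28.4% and 26.7% of all genes called in the 3 culture comparisons. Of 13 measured genes of a published human Yap1 and Taz target signature, the 7 left out and Ptpn14 shared with the regulators above, 6 fell and 3 rose in aggregates. Myof, which encodes a membrane repair protein, fell (-1.96, adjusted p = 2.126e-06), Igfbp3, the gene of an insulin-like growth factor binding protein, fell (-1.70) and the 5′-nucleotidase gene Nt5e rose (0.89). In Matrigel 2 of the 13 rose and 2 fell relative to basal culture, and relative to aggregates 7 were higher, among them Igfbp3 (3.05), and 1 lower, Gadd45a (-0.78). The median change of the 13 in aggregates was -0.26. Of 27 further measured targets 14 fell and 4 rose in aggregates (median -0.50), 8 fell and 4 rose in Matrigel. Set against aggregates, Matrigel had 11 of the 27 higher and 1 lower. The largest falls in aggregates included the cardiac troponin gene Tnnt2 (-4.63), the cell division gene Birc5 (-4.04) and the cyclin gene Ccnd1 (-3.37). The transglutaminase gene Tgm2 (1.91) and the glucose transporter gene Slc2a1 (1.26) rose.

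Of 28 measured actin cytoskeleton genes and targets of serum response factor, 14 fell and 3 rose in aggregates, against 23.4% and 22.9% of all genes (median -0.29 beside 0.10). Set against aggregates, Matrigel had 17 of the 28 higher and 2 lower, against 13.9% and 12.7% of all genes (median 0.49 beside -0.10). The calponin gene Cnn3 fell (-4.22, adjusted p = 5.116e-07), as did Cnn2 (-2.59) and Cald1 (-2.02), which encode actin-binding proteins, while the immediate early genes Fos (2.12) and Egr1 (1.23) rose. Of 17 measured TGF-beta targets, 8 fell and 2 rose in aggregates, 10 of 17 against 46.3% of all genes (median -0.19).

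Cell division genes moved with the cultures too. Of 18 measured, 16 fell in aggregates (23.4% of all genes) and 15 in Matrigel (14.3% of all genes), and 16 were higher in Matrigel than in aggregates. Their summed intensity per array was 35952 to 42087 in basal culture, 10554 to 12035 in aggregates and 17864 to 21640 in Matrigel. Hepatocyte markers went the other way, with 9 of 9 higher in aggregates and 8 of 9 in Matrigel and summed intensities of 5397 to 8411 in basal, 46375 to 72087 in aggregate and 37833 to 46677 in Matrigel arrays. Of 12 stellate cell markers Vim fell (-1.17) and Reln rose (0.28) in aggregates. The summed intensity of the 12 was 14591 to 15841 in basal, 6424 to 9216 in aggregate and 8922 to 14756 in Matrigel arrays, most of it from Vim. Of 10 endothelial markers 0 passed in aggregates in limma (0 at an unadjusted p below 0.05), with summed intensities of 1219 to 1550 in basal, 1338 to 1539 in aggregate and 1072 to 1764 in Matrigel arrays. Of 3 mesothelial markers 0 passed in aggregates (0 at an unadjusted p below 0.05). Between Matrigel and basal culture 1 endothelial and 1 mesothelial marker passed (28.4% of all genes called). Between the lines 2 endothelial markers and 1 mesothelial marker passed (6.01% of all genes called). With the replicate block these counts were 2 and 1 in Matrigel and 0 and 0 between the lines. Of 8 blood cell markers 3 rose in aggregates (22.9% of all genes), among them Csf1r (1.48, adjusted p = 2.637e-07). With the replicate block 6 of the 8 rose, against 3423 of 12393 genes. The haemoglobin gene Hba-a1 did not pass (0.12) and lay in the background range. Of 6 bile duct markers 2 rose and 2 fell, Epcam by 5.00 and Krt7 by -2.29. The part of dividing cells, hepatocyte features or cell types in the differences of the 7 genes was not tested.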

How the data were processed

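Signal intensities for 22690 probe sets on 12 arrays were deposited by the authors, who used R 2.3.1 and RMA per the submitters' processing notes. The values are linear (14.4 to 27318), whereas RMA usually yields log2 values, so log2 of each deposited intensity was taken. Platform annotation gave 1 symbol to 20380 probe sets, several to 691 and none to 1555, and 64 were controls; only the first kind was tested. Symbols were updated by gene ID through RefSeq (GRCm38.p6), and the probe set with the highest mean stood for a gene (12393 genes, 4956 with more than 1). No filter on dim genes was applied.

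Group means of the 6 groups were fitted with limma 3.58.1 (lmFit, eBayes) in R 4.3.3. The residual SD had a median of 0.170 over genes on 6 residual degrees of freedom. Tests were two-sided and adjusted by Benjamini-Hochberg over all genes. The code was tested on simulated data. The members and gene lists were chosen with earlier results of these data known. Named genes are the 7 members, genes of the regulator, effector and relative lists, up to 4 called genes per other list, culture comparison and direction, and the genes most like the members (10 for their mean, 3 per member); Krt19, Lrat, Pdgfrb and Hba-a1 were named after their values were seen. The gap between duplicates correlated across genes between groups, weakly in some (r from 0.10 to 0.64, 15 of 15 pairs of groups). The labels give only replicate numbers, so pairing of arrays by replicate number is possible but not established. The main fit leaves it out, and a fit with replicate number as a block is given where it changes a call. Where Matrigel duplicates differ in labelled days, replicate number and time in culture cannot be told apart. Figures used Python 3.11.15 and matplotlib 3.10.9.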

Additional observations from a re-analysis of the deposited data

How the results depend on the processing

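Calls were recomputed while leaving out each array, with other scalings, floors, probe set rules and model forms, and with the replicate block. Of 42 results on the 7 genes (6 comparisons: the 3 between cultures, the lines, and the line difference in the aggregate and Matrigel responses), 27 kept their direction and side of the threshold in all alternatives, 15 did not in some, and 0 reversed. Leaving out 1 array at a time, the number called of 7 was 7 to 7 for aggregates against basal, 1 to 3 for Matrigel against basal, 4 to 6 for Matrigel against aggregates, 2 to 3 between lines, 0 to 1 for the line difference in aggregate response and 0 to 0 for that in Matrigel response. For Matrigel against basal it was 1 without replicate 1 of basal 9A1, 1 without replicate 1 of basal 14B3 and 1 at a minimum change of 1 log2 unit. With arrays of replicate number 1 only, a split chosen after seeing the data, the line count was 0; with number 2 only, the counts were 5 for aggregates against basal, 0 for Matrigel against basal, 2 for Matrigel against aggregates and 0 between lines. Fewer arrays enter those fits. In those 6 comparisons the replicate block, within each line, changed among the 7 genes only Ajuba for Matrigel minus basal (adjusted p = 0.02148), and shared by both lines also Axl between lines (adjusted p = 0.01622). The other 10 comparisons (within a line, within a culture, and the line difference in Matrigel against aggregates) were run, after seeing the data, with the blocks and without each array only. There 22 of 70 results changed their call in some setting and 0 reversed; the block within each line changed 8 and the shared block 9, all to a call. Of 412 results on other genes, 240 changed in none and 1 reversed: Tead4 for Matrigel minus basal was -0.28 (adjusted p = 0.03799) with the mean of all its probe sets and 0.03 otherwise, and the cause was not tested. Requiring genes above the median level removed Lats2. Levels near background limit Ankrd1, Ccn1, Ccn2, Ajuba, Wwtr1 and Tead2 in aggregates and Lats2 throughout. They also limit Ankrd1 in Matrigel 14B3 and replicate 2 of basal 14B3. For Tead2 they do so in basal and Matrigel 14B3 and in replicate 2 of Matrigel 9A1. Such levels also limit Trip6 in aggregates, Lats1 in all arrays, Amot in basal culture, and Mertk and Pros1 in basal and Matrigel culture. For genes outside the 7 this list is not complete.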
